A study of Mus musculus with 12 samples.

Results

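The extracellular matrix and matrix remodelling genes were the genes of the table whose symbol named a collagen chain, a laminin chain, a matrix metalloproteinase, a tissue inhibitor of metalloproteinases or a lysyl oxidase, together with Fn1, Eln, Nid1, Nid2, Hspg2 and Agrn. The symbols alone chose them, and no measured value was used. They numbered 93 of the 34745 genes of the table. RNA was sequenced in 12 libraries of MLE-12 cells, a mouse lung epithelial line used as a model of alveolar type II (AT II) cells, after 24 h. In the LPS group cells were kept at 21% oxygen with 100 ng/mL lipopolysaccharide, a component of bacterial walls, and in the Hyp group they were exposed to 85% oxygen without lipopolysaccharide. The LPS + M2-Exo and Hyp + M2-Exo groups had the same exposures with exosomes of M2 macrophages added afterwards at 10 µg/mL. Each group held 3 libraries, no library of untreated cells was analysed here, and all cells were of 1 line in culture by the labels.

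The matrix of the alveolus has a thin basement membrane, built of laminin trimers and a network of collagen IV that nidogens, perlecan and agrin tie together, and an interstitium of fibrillar collagens, fibronectin and elastin. Epithelial cells make much of the basement membrane themselves. Lysyl oxidases cross-link collagen and elastin, metalloproteinases (MMPs) cut matrix proteins, and tissue inhibitors of metalloproteinases (TIMPs) block them.

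Total counts were 18700207 to 19185116 in LPS, 16021833 to 18505941 in LPS + M2-Exo, 22035335 to 24074616 in Hyp and 20231632 to 23414010 in Hyp + M2-Exo, so the libraries of the injuries did not overlap in depth. The labelled cell type was checked against marker genes, in CPM (counts scaled to the library total). The sum of the 10 AT II markers was 417 to 426 in LPS and 257 to 272 in Hyp. Nkx2-1 had a mean of 167 in LPS and 40.8 in Hyp and Abca3 193 and 155, Etv5 and Sftpb stood the other way at 35.1 and 52.9 and at 1.46 and 4.79, and Sftpa1 had no count in LPS or Hyp while Sftpd stayed at or under 0.0415. The sum of the 8 epithelial markers, most of it Krt19, was lower in LPS, at 647 to 679 against 906 to 927 in Hyp. Krt19 had a mean of 485.5 in LPS and 765 in Hyp, and Krt8 was close at 152 and 147. Cdh1 at 15.9 and 3.53, Krt7 at 7.43 and 1.24 and Epcam at 0.826 and 0.494 stood the other way. Of the 12 macrophage markers 10 reached a mean of 1 or more, and their sum was 446 to 500 in LPS, 355 to 405 in LPS + M2-Exo, 123 to 129 in Hyp and 95.2 to 142 in Hyp + M2-Exo. The sum of the 10 fibroblast and smooth muscle markers was 33.6 to 36.9 in LPS and 11.3 to 13.0 in Hyp. The growth factor receptors Pdgfra, at a mean of 21.5 in LPS and 1.05 in Hyp, and Pdgfrb, at 5.85 and 0.840, were higher in LPS like most of the collagens, Twist2 had 6.58 and 8.73 and Tagln 0.456 and 0.961, and Tcf21 and Thy1 were at or near 0. The sum of the 8 endothelial markers was 23.6 to 26.1 in LPS and 13.6 to 16.5 in Hyp, and rested on Tek at 22.6 and 3.79, whereas Vwf at 1.62 and 8.28, Pecam1 at 0.297 and 2.13 and Kdr at 0.140 and 0.954 stood the other way and Cdh5 and Emcn were at or near 0. The part of these marker genes in the matrix results was not tested. In bulk RNA, fewer cells of a type and less RNA per cell cannot be told apart, and neither can lipopolysaccharide, oxygen and anything else that differed between the cultures of the 2 injuries.

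The matrix genes took a larger share of all counts in LPS than in hyperoxia. The share was 0.971 ± 0.0318% (SD, n = 3) in LPS, 1.02 ± 0.0138% in LPS + M2-Exo, 0.586 ± 0.0107% in Hyp and 0.546 ± 0.0263% in Hyp + M2-Exo. The libraries of LPS, from 0.951% to 1.01%, lay above those of Hyp, from 0.575% to 0.595%. Of the 93 genes, 9 had no count in any library, 29 stayed under 10 counts in every library, and 36 reached a mean FPKM (counts scaled by gene length and library total, deposited by the authors) of at least 1 in a group.

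Levels of different genes were compared in FPKM only. Timp2, a secreted MMP inhibitor that also takes part in activating pro-MMP2, was the most abundant matrix gene in every group, at 289 ± 1.18 (SD, n = 3) in LPS and 145 ± 6.12 in Hyp. The collagen IV chains Col4a1 and Col4a5, the laminin chains Lamb2 and Lamc1, and Col4a2 followed in LPS, at mean FPKM of 114, 102, 98.3, 87.5 and 71.5. In Hyp the order after Timp2 was Col4a1 at 88.1, Col4a2 at 58.6, Lamc1 at 57.7 and Lamb2 at 51.7, and Col4a5 stood lower at 31.0. Basement membrane collagens made up 30.5% of the summed FPKM of the 93 genes in LPS and 30.3% in Hyp, TIMPs 27.7% and 27.0%, and laminins 20.9% and 21.1%. These classes thus held nearly the same share of the matrix total in both injuries. Nidogens and basement membrane proteoglycans held 7.23% in LPS and 4.55% in Hyp, beaded filament and network collagens 2.31% and 0.369%, and fibril-associated collagens 1.61% and 5.62%. Fibrillar collagens were scarce, at 0.422% and 0.989%, with Col1a1, the main chain of interstitial collagen I, at 1.54 ± 0.0748 and 1.21 ± 0.101 FPKM, and its partner Col1a2 at 0.0368 ± 0.0111 and 0.0382 ± 0.00577.

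**Figure D1:**
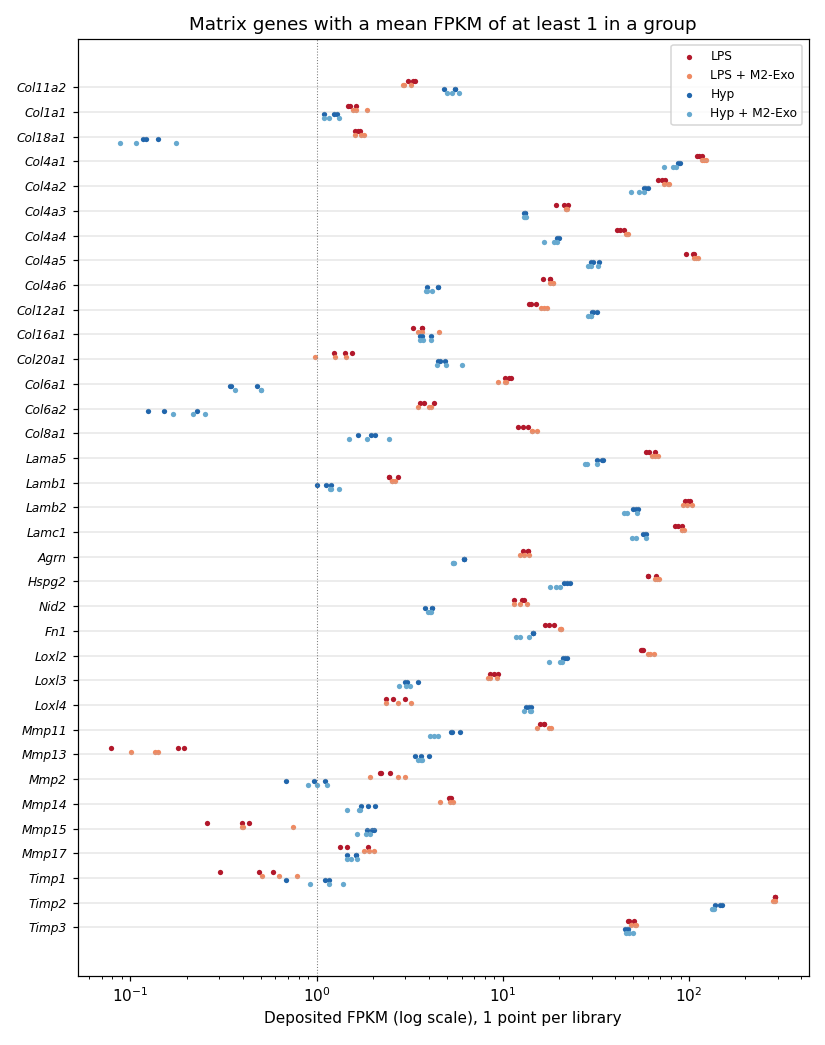
Deposited FPKM of 35 of the 36 matrix genes with a group mean of at least 1, on a log axis, with 1 point per library and 1 color per group. Timp2, Col4a1, Lamb2 and Lamc1 lie at the right, and Col6a1, Col6a2, Col18a1 and Mmp13 show the widest gaps between the LPS and the hyperoxia libraries.

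The comparison of LPS with hyperoxia asked which matrix genes differed between the 2 injury models. Of the 93 genes, 58 had enough counts to be tested, which a gene can reach through 1 group alone. By edgeR's quasi-likelihood test with Benjamini-Hochberg adjustment over all genes tested, 52 of the 58 (89.7%) passed an adjusted p of 0.05, against 75.8% of all 13805 genes tested. In LPS 37 were higher (63.8%, against 37.8% of all genes) and 15 were lower (25.9%, against 38.0%). The median log2 fold change was 0.75 over the matrix genes and -0.0091 over all genes, and 38 matrix genes (65.5%, against 24.0%) also passed an absolute log2 fold change of 1. For 52 of the 58 genes the 3 LPS libraries did not overlap with the 3 Hyp libraries, which was so for 78.8% of all genes. The 6 genes not called were Col1a2, Col3a1, Col16a1, Lamc3, Mmp17 and Mmp24. Differences within a gene are given below in CPM on TMM-scaled library sizes, and log2 fold changes carry their standard error.

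**Figure D2:**
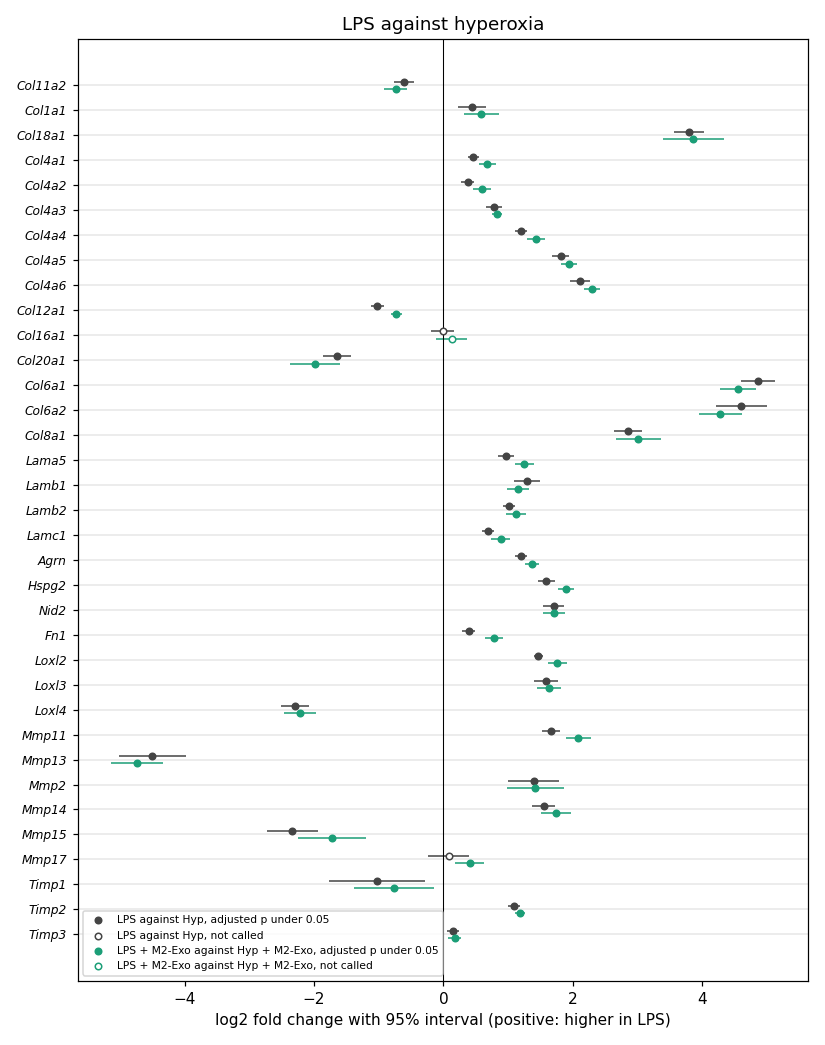
The log2 fold change of LPS against hyperoxia for 35 of the 36 matrix genes with a mean FPKM of at least 1, without M2-Exo (grey) and with M2-Exo (green), with 95% intervals from edgeR. Filled points passed an adjusted p of 0.05, genes are ordered by role, and most lie to the right of 0, while Col11a2, Col12a1, Col20a1, Loxl4, Mmp13, Mmp15 and Timp1 lie to the left.

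All 6 chains of collagen IV, the network-forming collagen of basement membranes, were higher in LPS. The chain genes stand head to head in 3 pairs, and the difference varied between and within the pairs. Col4a1 and Col4a2, whose starts lie 21 bases apart on chromosome 8, were higher by log2 fold changes of 0.46 ± 0.04 (adjusted p = 7.40e-06) and 0.38 ± 0.04 (adjusted p = 7.78e-05). Col4a3 and Col4a4, with starts 72 bases apart on chromosome 1, were higher by 0.78 ± 0.06 (adjusted p = 5.11e-06) and 1.20 ± 0.04 (adjusted p = 1.13e-07). Col4a5 and Col4a6, with starts 1309 bases apart on the X chromosome, were higher by 1.81 ± 0.06 (adjusted p = 7.43e-08) and 2.11 ± 0.07 (adjusted p = 8.72e-08). The 95% intervals of Col4a1 (0.38 to 0.54) and Col4a2 (0.28 to 0.48) overlapped, and both lay below those of the other 4 chains, of which the lowest was 0.65 to 0.91 for Col4a3. The intervals did not overlap between Col4a3 and Col4a4 (1.11 to 1.30), or between Col4a5 (1.68 to 1.94) and Col4a6 (1.95 to 2.26). Col4a1 and Col4a2 overlap each other in the table, so reads at their starts cannot be assigned to 1 of them without strand.

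Col4a5 (chrX:141475385-141689234, GRCm38, plus strand), a chain of the networks found in lung and kidney basement membranes, had 878, 802 and 895 CPM in the LPS libraries and 916, 900.1 and 937 in LPS + M2-Exo. In Hyp it had 241, 234 and 259 CPM, and in Hyp + M2-Exo 257, 227 and 234. The LPS libraries all lay above the hyperoxia libraries, with or without M2-Exo, and the difference between LPS and Hyp was 3.51-fold. Col4a6 (chrX:141165403-141474076, minus strand), which assembles with Col4a5, had 151, 139 and 153 CPM in LPS and 36.0, 31.2 and 35.7 in Hyp, with no overlap and a 4.31-fold difference. By FPKM, Col4a5 held 27.7 ± 0.953% (SD, n = 3) of the collagen IV total in LPS and 14.4 ± 0.781% in Hyp, whereas Col4a1 held 30.9 ± 0.730% and 41.0 ± 0.420%. The bases before the starts of this most different pair are shown, from the RefSeq promoter table (GRCm38.p6), each ending at the last base before the start in RefSeq or in the gene table, whichever comes first, and with a CCAAT box or a GC box (GGGCGG, here as CCGCCC) in capitals. Col4a5 is chrX:141475169-141475384 on the plus strand and Col4a6 is chrX:141474077-141474326 on the minus strand.
Col4a5: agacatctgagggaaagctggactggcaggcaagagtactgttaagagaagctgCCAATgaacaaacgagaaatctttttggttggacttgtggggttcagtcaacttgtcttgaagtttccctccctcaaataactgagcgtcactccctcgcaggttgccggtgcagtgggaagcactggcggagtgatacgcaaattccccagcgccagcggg
Col4a6: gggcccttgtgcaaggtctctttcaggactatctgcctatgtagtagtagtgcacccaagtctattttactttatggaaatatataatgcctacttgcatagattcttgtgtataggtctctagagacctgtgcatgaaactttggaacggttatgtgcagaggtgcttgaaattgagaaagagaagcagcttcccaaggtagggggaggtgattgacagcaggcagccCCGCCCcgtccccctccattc
Both windows lie between the 2 starts, which are 1309 bases apart. At 250 bases or less they are too short to share bases, so whether the pair shares upstream sequence was not tested. In the 250 bases before the start, CCAAT was found on either strand in 33.8% of all 32851 windows of the table and in 20 of the 66 matrix genes with a window, and GGGCGG in 32.7% and in 36 of 66. Col4a5 was among those 36, through bases outside the stretch shown. All these matches are descriptions and not sites of binding.

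Among the other basement membrane collagens, Col18a1, the proteoglycan collagen that is the source of endostatin, was one of the genes furthest apart. Col18a1 had 18.6, 19.1 and 19.8 CPM in LPS and 1.32, 1.27 and 1.52 in Hyp, a 13.9-fold difference without overlap (log2 fold change 3.79 ± 0.10 (adjusted p = 4.66e-08)). Col18a1 overlaps Slc19a1 in the table, and reads of the overlap cannot be told apart. Col15a1, its closest relative, was low, with 0.770, 0.968 and 0.539 CPM in LPS and 0.289, 0.132 and 0.481 in Hyp, and was higher in LPS by 1.30 ± 0.44 (adjusted p = 0.0276). Col7a1, which forms the anchoring fibrils beneath the basement membrane, went the other way, with 1.21, 1.45 and 1.67 CPM in LPS and 3.39, 5.31 and 3.85 in Hyp (log2 fold change -1.53 ± 0.23 (adjusted p = 4.26e-04)). All 9 genes of this class were tested, 8 were higher in LPS and Col7a1 alone was lower.

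The collagens of beaded filaments and hexagonal networks were much higher in the LPS libraries. Col6a1 (chr10:76708792-76726168, minus strand), a chain of the collagen VI filaments that link basement membranes to the interstitium, had 47.9, 51.5 and 50.3 CPM in LPS and 48.6, 48.3 and 44.3 in LPS + M2-Exo. In Hyp it had 1.53, 1.49 and 2.09 CPM and in Hyp + M2-Exo 2.21, 1.61 and 2.20, so that the lowest LPS library stood far above the highest hyperoxia library. The difference between LPS and Hyp was 29.1-fold (log2 fold change 4.86 ± 0.11 (adjusted p = 2.77e-08)). Its neighbour Col6a2 (chr10:76595762-76623630), the second chain of the same trimer, had 32.6, 36.8 and 31.3 CPM in LPS and 1.24, 1.01 and 1.84 in Hyp, 24.3-fold apart (log2 fold change 4.60 ± 0.17 (adjusted p = 1.55e-07)). Col6a3, the third chain, was scarce at 1.21, 1.99 and 1.40 CPM in LPS and 0.0827, 0.351 and 0.762 in Hyp, and was also higher in LPS (log2 fold change 1.92 ± 0.52 (adjusted p = 0.0102)). By FPKM, Col6a3 was at 0.109 in LPS beside 10.7 for Col6a1 and 3.86 for Col6a2.

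Col8a1 and Col8a2, which form the hexagonal networks of collagen VIII, followed the same order. Col8a1 had 67.4, 62.9 and 72.4 CPM in LPS and 8.23, 10.1 and 9.62 in Hyp, 7.24-fold apart (log2 fold change 2.86 ± 0.09 (adjusted p = 9.85e-08)), and Col8a2 was 5.79-fold higher in LPS at a low level, with 2.80, 2.64 and 2.86 CPM against 0.455, 0.527 and 0.441. All 5 genes of this class that were tested were higher in LPS, and the other 6 stayed under 10 counts in every library. Col23a1, a transmembrane collagen, was higher in LPS as well, with 1.26, 1.51 and 1.67 CPM against 0.207, 0.219 and 0.201 in Hyp (log2 fold change 2.79 ± 0.27 (adjusted p = 3.05e-05)). Each Hyp library held 5 counts of Col23a1.

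Of the 5 fibril-associated collagens tested, 3 were lower in LPS, 1 was higher and 1 was not called. Col12a1 (chr9:79598991-79718831, minus strand), which binds the surface of collagen I fibrils, had 257, 252 and 274 CPM in LPS and 294, 306 and 316 in LPS + M2-Exo. In Hyp it had 553, 524 and 515 CPM and in Hyp + M2-Exo 513, 513 and 491, which placed all hyperoxia libraries above all LPS libraries. The log2 fold change of LPS against Hyp was -1.02 ± 0.04 (adjusted p = 3.34e-07), a 2.03-fold lower level in LPS. Col20a1, a less studied collagen of the same class, had 7.15, 6.56 and 5.72 CPM in LPS and 20.0, 21.3 and 19.4 in Hyp (log2 fold change -1.64 ± 0.09 (adjusted p = 1.47e-06)), and Col9a3, a chain of the cartilage collagen IX, was 2.09-fold lower in LPS at 0.934, 0.645 and 0.809 CPM against 1.53, 1.49 and 1.97. Col16a1 was not called, with 31.9, 35.9 and 35.9 CPM in LPS, 33.9, 33.1 and 37.7 in Hyp and a log2 fold change of -0.01 ± 0.08 (adjusted p = 0.874). Col14a1 was the 1 gene of this class that was higher in LPS (0.55 ± 0.19 (adjusted p = 0.0311)).

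Of the 7 fibrillar collagens tested, 2 were higher in LPS, 3 were lower and 2 were not called. Col1a1 had 11.5, 10.5 and 10.9 CPM in LPS and 7.36, 8.29 and 8.62 in Hyp, and was higher in LPS by 0.44 ± 0.09 (adjusted p = 0.0027). Col5a2, a chain of the collagen V that nucleates collagen I fibrils, was higher in LPS by 1.53 ± 0.32 (adjusted p = 0.00271). Col11a2, a chain of the minor fibrillar collagen XI, had 27.2, 26.6 and 25.1 CPM in LPS and 36.8, 41.9 and 41.6 in Hyp and was lower in LPS (log2 fold change -0.61 ± 0.07 (adjusted p = 7.24e-05)). Col27a1, a collagen of cartilage and other tissues, was also lower in LPS (-2.22 ± 0.42 (adjusted p = 0.00165)). Col2a1, the main collagen of cartilage, had 4 counts in the 3 LPS libraries together and 68 in the 3 Hyp libraries, a ratio of 13.1 with a 95% counting interval of 4.88 to 49.4 after scaling. Col1a2 had 0.440, 0.807 and 0.593 CPM in LPS and 0.496, 0.658 and 0.642 in Hyp and Col3a1 1.70, 1.40 and 1.46 and 0.744, 1.18 and 1.48, and neither was called (adjusted p = 0.918 and 0.201).

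The chains of the main laminin were higher in LPS. Lama5, Lamb2 and Lamc1 were by far the most abundant alpha, beta and gamma chains, with Lama5 at 99.6 ± 0.0274% of the alpha FPKM in LPS and 99.9 ± 0.0315% in Hyp, and Lamb2 at 97.4 ± 0.0798% and 97.8 ± 0.159% of the beta FPKM. These 3 chains can assemble into a laminin of alveolar basement membranes. Lama5 had 746, 769 and 837 CPM in LPS and 411, 384 and 407 in Hyp (log2 fold change 0.97 ± 0.05 (adjusted p = 9.75e-07)). Lamb2 had 728, 756 and 785 and 375, 363 and 384 (1.02 ± 0.04 (adjusted p = 2.29e-07)), and Lamc1 885, 909 and 966 and 583, 557 and 570.2 (0.69 ± 0.04 (adjusted p = 1.95e-06)). The groups did not overlap for any of the 3 chains. Lamb1, the beta chain more common in the embryo, was higher in LPS by 1.30 ± 0.09 (adjusted p = 3.27e-06). Lama3, a chain of the laminin 332 of anchoring contacts, was 16.0-fold higher in LPS at 2.25, 2.26 and 2.43 CPM against 0.124, 0.132 and 0.160. The fold of Lama3 rested on 3, 3 and 4 counts in the Hyp libraries. Lamb3, the beta chain of laminin 332, was at 0.165, 0.430 and 0.108 CPM in LPS and 0.992, 0.483 and 0.441 in Hyp and had too few counts to be tested here. Lamc3 was not called (-0.03 ± 0.51 (adjusted p = 0.955)).

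The proteins that tie laminin and collagen IV together were higher in LPS. Hspg2, which encodes perlecan, the large heparan sulfate proteoglycan of basement membranes, had 1038, 1032 and 1152 CPM in LPS and 373, 342 and 356 in Hyp, 3.01-fold apart (log2 fold change 1.59 ± 0.05 (adjusted p = 1.24e-07)). Nid2, which bridges laminin and collagen IV, had 57.3, 63.8 and 65.6 CPM and 19.7, 18.1 and 19.5 (1.70 ± 0.07 (adjusted p = 3.02e-07)). Agrn, which encodes agrin, had 197, 184 and 199 CPM and 84.1, 84.5 and 84.2 (1.20 ± 0.04 (adjusted p = 8.86e-08)). No library of LPS overlapped with Hyp for these 3 genes. Nid1, the other nidogen, was at 0.0408 FPKM in LPS and 0.0427 in Hyp beside 12.4 and 4.04 for Nid2, and was not tested.

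Fibronectin and elastin were both higher in LPS, by very different amounts. Fn1, the adhesive glycoprotein fibronectin, had 313, 329 and 352 CPM in LPS and 254, 253 and 253 in Hyp, 1.31-fold apart (log2 fold change 0.39 ± 0.05 (adjusted p = 9.55e-05)). Eln, which encodes the elastin of alveolar elastic fibres, was far scarcer at 5.61, 5.70 and 4.69 CPM in LPS and 0.331, 0.307 and 0.642 in Hyp, 12.2-fold apart (log2 fold change 3.61 ± 0.25 (adjusted p = 4.24e-06)). The lowest LPS library of Eln lay above the highest Hyp library, and the fold rested on 8, 7 and 16 counts in Hyp.

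The lysyl oxidases differed in opposite directions. Loxl2 (chr14:69609068-69695834, plus strand), which cross-links collagen IV, had 346, 351 and 352 CPM in LPS and 388, 407 and 377 in LPS + M2-Exo, against 123, 129 and 127 in Hyp and 123, 119 and 105 in Hyp + M2-Exo. Its log2 fold change between LPS and Hyp, 1.46 ± 0.03 (adjusted p = 2.06e-08), had the smallest adjusted p of all matrix genes. Loxl3 had 50.8, 48.4 and 54.0 CPM in LPS and 16.0, 16.3 and 18.8 in Hyp (1.59 ± 0.08 (adjusted p = 7.36e-07)). Loxl4 (chr19:42593982-42612813, minus strand) stood in the opposite order, with 13.0, 14.1 and 16.6 CPM in LPS and 17.8, 15.3 and 13.1 in LPS + M2-Exo, against 69.1, 73.5 and 71.5 in Hyp and 67.7, 73.9 and 72.8 in Hyp + M2-Exo. Loxl4 was 4.90-fold lower in LPS (log2 fold change -2.29 ± 0.09 (adjusted p = 2.39e-07)), with no overlap between the injuries. By FPKM, Loxl2 held 82.8 ± 0.900% of the 5 lysyl oxidases in LPS and 56.0 ± 0.447% in Hyp, and Loxl4 3.90 ± 0.430% and 35.7 ± 0.367%. Lox and Loxl1 were near 0 in every group, and the summed FPKM of the 5 genes was 67.6 in LPS and 38.5 in Hyp.

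**Figure D3:**
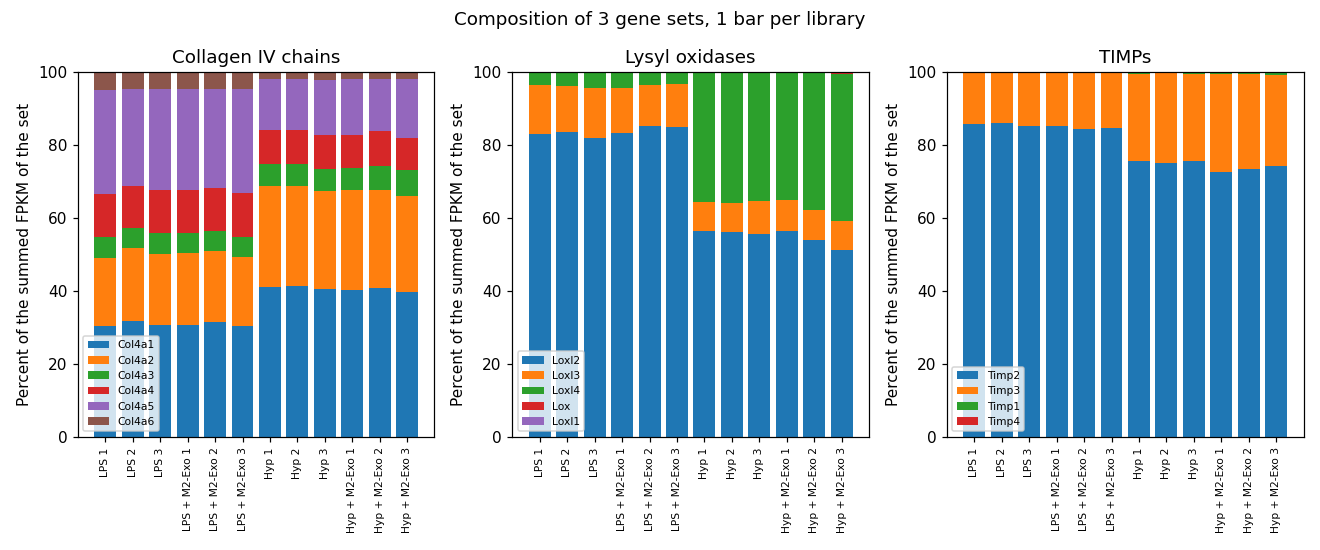
Share of the summed FPKM held by each collagen IV chain, lysyl oxidase and TIMP, as percent of the set, with 1 stacked bar for each of the 12 libraries. Col4a5, Loxl2 and Timp2 take larger shares in the 6 LPS libraries, and Col4a1, Loxl4 and Timp3 in the 6 hyperoxia libraries.

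Metalloproteinases divided between the injuries. Mmp11, the stromelysin that is activated inside the cell, was the most abundant at 16.3 FPKM in LPS and 5.50 in Hyp, and had 65.9, 68.8 and 69.3 CPM in LPS and 23.1, 20.6 and 20.8 in Hyp (log2 fold change 1.66 ± 0.06 (adjusted p = 1.72e-07)). Mmp14, the membrane-bound enzyme that activates pro-MMP2, had 30.5, 30.9 and 31.3 CPM and 9.67, 11.5 and 10.5 (1.55 ± 0.08 (adjusted p = 6.81e-07)). Mmp2, the gelatinase it activates, had 7.70, 6.94 and 6.85 CPM and 3.27, 2.02 and 2.85 (1.39 ± 0.17 (adjusted p = 1.21e-04)). All 3 genes, like Timp2, which joins Mmp14 on the cell surface, were higher in LPS without overlap of the libraries. Mmp9, the other gelatinase and a gene that macrophages express, was 13.4-fold higher in LPS at 1.76, 1.94 and 2.10 CPM against 0.165, 0.176 and 0.0802 (3.74 ± 0.30 (adjusted p = 9.88e-06)). This fold rested on 4, 4 and 2 counts in the Hyp libraries. The macrophage marker sum given above was also higher in LPS, and a link with Mmp9 was not tested. Mmp19 and Mmp23 were higher in LPS at low levels, by 0.73 ± 0.23 (adjusted p = 0.0198) and 0.93 ± 0.32 (adjusted p = 0.0263).

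Mmp13, a collagenase, and Mmp10, a stromelysin, were higher in hyperoxia, and the few counts of Mmp3, another stromelysin, lay mostly there. Mmp13 (chr9:7272514-7283333, plus strand) had 0.495, 0.215 and 0.539 CPM in LPS and 0.372, 0.389 and 0.279 in LPS + M2-Exo, against 8.76, 9.43 and 10.3 in Hyp and 9.47, 9.12 and 9.49 in Hyp + M2-Exo, and was 22.6-fold lower in LPS (log2 fold change -4.50 ± 0.22 (adjusted p = 6.38e-07)). The LPS libraries held 9, 4 and 10 counts of Mmp13. Mmp10 (chr9:7502352-7510238, plus strand) had 0 counts in each LPS library and 22, 17 and 14 in the Hyp libraries, at least 4.48-fold higher in Hyp against a floor of 3 counts per library. Mmp3 (chr9:7445822-7455972, plus strand) had 0, 0 and 2 counts in LPS and 7, 13 and 15 in Hyp, too few to be tested. These 3 genes lie in a row of 10 MMP genes on chromosome 9, between Mmp13 and Mmp7, of which 4 had no count in any library. Their upstream bases are shown because they share letters that most promoters lack. The 250 bases before each RefSeq start (GRCm38.p6, all on the plus strand) were chr9:7445572-7445821 for Mmp3, chr9:7502092-7502341 for Mmp10 and chr9:7272264-7272513 for Mmp13, with the AP-1 element TGANTCA and the TATA box TATAAA in capitals.
Mmp3: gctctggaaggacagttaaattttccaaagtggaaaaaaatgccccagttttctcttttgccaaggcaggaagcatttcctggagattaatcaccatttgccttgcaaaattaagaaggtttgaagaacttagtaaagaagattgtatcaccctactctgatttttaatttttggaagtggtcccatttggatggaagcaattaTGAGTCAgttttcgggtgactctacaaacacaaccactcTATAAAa
Mmp10: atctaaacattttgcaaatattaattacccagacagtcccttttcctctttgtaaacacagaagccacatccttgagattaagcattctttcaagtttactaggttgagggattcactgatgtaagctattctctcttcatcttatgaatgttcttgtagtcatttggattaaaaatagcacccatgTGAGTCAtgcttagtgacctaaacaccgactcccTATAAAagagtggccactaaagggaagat
Mmp13: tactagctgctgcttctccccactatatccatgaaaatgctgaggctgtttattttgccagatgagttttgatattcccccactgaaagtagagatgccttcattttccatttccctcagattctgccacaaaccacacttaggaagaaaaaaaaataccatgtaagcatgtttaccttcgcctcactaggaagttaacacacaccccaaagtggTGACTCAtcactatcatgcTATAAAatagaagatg
The AP-1 letters began 46 bases before the start in Mmp3, 63 in Mmp10 and 35 in Mmp13, and the TATA letters 7, 29 and 16 bases before it. TGANTCA reads the same on both strands and was found in 6.75% of all windows, and TATAAA, searched on both strands, in 12.4%. Among the 66 matrix genes with a window, 9 held TGANTCA, 8 of them in this row on chromosome 9 and the other Col6a1, which was higher in LPS. Of the 10 genes of the row 7 held both motifs, including Mmp1a, Mmp1b, Mmp20 and Mmp7, which had no count in any library. The letters were present in genes of either direction and in genes without counts, and they are a description of the sequence alone.

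Of the other MMPs, Mmp15, a membrane-type enzyme of epithelia, had 1.15, 1.77 and 1.94 CPM in LPS and 8.56, 8.34 and 7.86 in Hyp and was 5.06-fold lower in LPS (log2 fold change -2.34 ± 0.17 (adjusted p = 5.57e-06)). Mmp25, a membrane-anchored enzyme known from leukocytes, had 2 counts in the LPS libraries together and 59 in Hyp, a ratio of 22.7 with a 95% counting interval of 6.01 to 192. Mmp28, known as epilysin, was lower in LPS (log2 fold change -0.42 ± 0.16 (adjusted p = 0.0397)). Mmp17 and Mmp24 were not called, at 0.08 ± 0.14 (adjusted p = 0.606) and -0.15 ± 0.20 (adjusted p = 0.532).

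**Figure D4:**
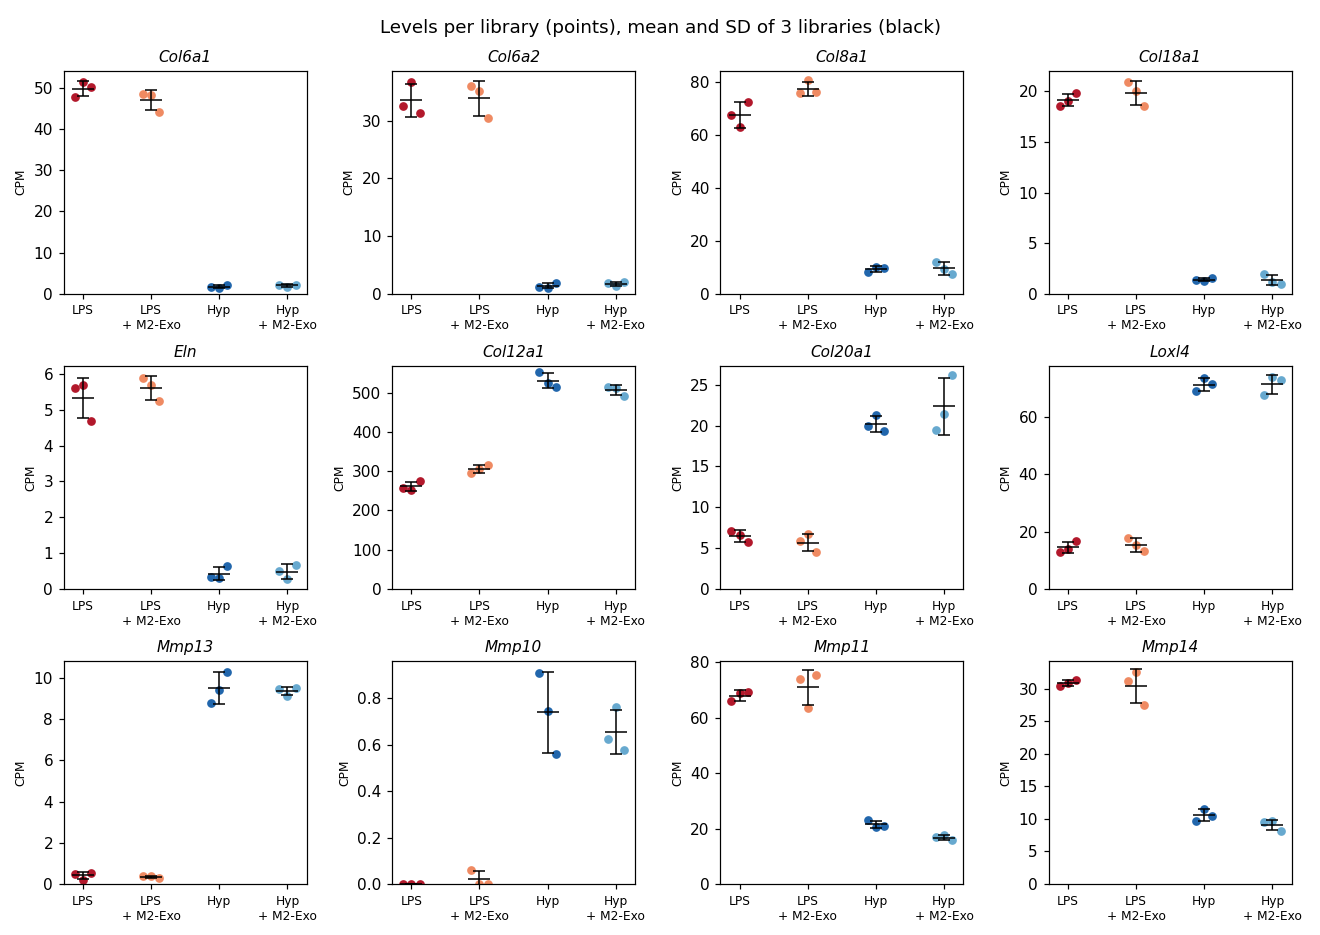
Level per library in CPM on TMM-scaled library sizes for 12 matrix genes, with the mean and SD of each group of 3 in black and the axis starting at 0. Col6a1, Col6a2, Col8a1, Col18a1, Eln, Mmp11 and Mmp14 are higher in both LPS groups, Col12a1, Col20a1, Loxl4, Mmp13 and Mmp10 in both hyperoxia groups, and the groups with and without M2-Exo lie close together.

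Of the 3 TIMPs tested, Timp2 and Timp3 were higher in LPS and Timp1 was lower. Timp2 had 1214, 1220.4 and 1221 CPM in LPS and 596, 546 and 577 in Hyp, 2.13-fold apart (log2 fold change 1.09 ± 0.04 (adjusted p = 1.23e-07)). Timp3, the TIMP that is bound to the matrix, had 439.7, 434 and 471 CPM and 414, 394 and 404 (0.15 ± 0.04 (adjusted p = 0.0104)), and scaling by total counts alone lowered this to 0.06 (adjusted p = 0.176). Timp1, an inducible inhibitor of most secreted MMPs, was low, at 0.825, 0.699 and 0.432 CPM in LPS and 1.57, 0.921 and 1.48 in Hyp, and was lower in LPS (log2 fold change -1.03 ± 0.32 (adjusted p = 0.0192)). That call was lost by DESeq2 (adjusted p = 0.0573), without LPS replicate 3 (0.0682), without Hyp replicate 1 (0.0635) and without Hyp replicate 3 (0.0579). Timp1 lies within Syn1 and Timp3 within Syn3 in the table. Timp4 stayed under 10 counts in every library. By FPKM, Timp2 held 85.6 ± 0.495% of the 4 TIMPs in LPS and 75.4 ± 0.274% in Hyp, and Timp3 14.3 ± 0.533% and 24.1 ± 0.393%.

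With M2-Exo in both injuries, 52 of 57 matrix genes tested (91.2%) differed between LPS + M2-Exo and Hyp + M2-Exo, against 73.7% of all genes, 36 of them higher in LPS + M2-Exo (63.2%, against 36.5%) and 16 lower (28.1%, against 37.1%). The median log2 fold change was 0.83 over the matrix genes and -0.0083 over all genes. Col6a1 was 23.4-fold higher, Col18a1 14.5-fold, Eln 11.6-fold and Col4a6 4.92-fold, and Mmp13 was 26.7-fold and Loxl4 4.65-fold lower. Col2a1 and Mmp25 had 0 counts in each LPS + M2-Exo library and were at least 5.08-fold and 4.97-fold lower there than in Hyp + M2-Exo, and Mmp10 had 1 count against 44, a ratio of 32.4 with an interval of 5.52 to 1308. Mmp17 was higher in LPS + M2-Exo by 0.40 ± 0.09 (adjusted p = 0.00474) and Lamb3 lower (log2 fold change -1.37 ± 0.48 (adjusted p = 0.0309)), while Col14a1 was not called (0.29 ± 0.22 (adjusted p = 0.261)) and Col15a1 was not tested. Fn1 differed by 0.78 ± 0.06 with M2-Exo and 0.39 ± 0.05 without it, and Col12a1 by -0.73 ± 0.04 and -1.02 ± 0.04.

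M2-Exo were added to ask how the exosomes alter injured cells. In the LPS cultures 0 of 53 matrix genes tested passed an adjusted p of 0.05 by edgeR, against 0.187% of all genes (25 of 13353). At an unadjusted p under 0.05 there were 7 (13.2%, against 11.1% of all genes). DESeq2 called 2, Fn1 and Col12a1, and how many of all genes it called is not given here. The median log2 fold change was 0.06 over the matrix genes and 0.0027 over all genes, and the largest absolute value was 0.611. The macrophage marker sum was lower in LPS + M2-Exo than in LPS, as given above, and its part in these values was not tested.

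The 7 genes with the smallest p in LPS were Col12a1, Fn1, Loxl2, Col8a1, Col4a4, Col4a1 and Hspg2, all with higher values with M2-Exo. None passed adjustment by edgeR, and their share (13.2%) was close to that of all genes (11.1%). Shares by direction over all genes are not given here. Fn1 had 384, 384 and 379 CPM in LPS + M2-Exo against 313, 329 and 352 in LPS, without overlap, a log2 fold change of 0.21 ± 0.04 (adjusted p = 0.188) by edgeR. DESeq2 gave Fn1 an adjusted p of 0.0238. Col12a1 differed by 0.22 ± 0.04 (adjusted p = 0.155) by edgeR, with an adjusted p of 0.00971 by DESeq2, and its libraries did not overlap. The groups did not overlap for 8 of the 53 matrix genes tested (15.1%), and the share over all genes is not given here. Loxl2 had a log2 fold change of 0.16 ± 0.03 (adjusted p = 0.195) and Col8a1 one of 0.20 ± 0.06 (adjusted p = 0.301). Between LPS and Hyp the log2 fold changes were 0.39 for Fn1, -1.02 for Col12a1, 1.46 for Loxl2 and 2.86 for Col8a1.

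In the hyperoxia cultures 0 of 55 matrix genes tested were called by edgeR, against 0.101% of all genes (14 of 13815), and DESeq2 called 0. At an unadjusted p under 0.05 there were 7 (12.7%, against 8.48%), namely Agrn, Mmp11, Hspg2, Fn1, Lama5, Timp2 and Col4a1, all with lower values with M2-Exo. Shares by direction over all genes at this p are not given here. Agrn had 74.8, 73.2 and 73.7 CPM in Hyp + M2-Exo and 84.1, 84.5 and 84.2 in Hyp, a log2 fold change of -0.20 ± 0.04 (adjusted p = 0.375). Mmp11 had 16.8, 17.7 and 15.8 CPM and 23.1, 20.6 and 20.8 (-0.36 ± 0.08 (adjusted p = 0.453)). The libraries with and without M2-Exo did not overlap for Agrn or Mmp11. That was so for 10 of the 55 matrix genes tested (18.2%), and the share over all genes is not given here. Fn1 had 243, 218 and 206 CPM in Hyp + M2-Exo against 254, 253 and 253 in Hyp (-0.19 ± 0.06 (adjusted p = 0.544)). The median log2 fold change was -0.0178 over the matrix genes and -0.0021 over all genes. The largest absolute value was 1.09, in a beaded filament or network collagen that was higher with M2-Exo and not called. For 47 of the 53 genes in LPS and 47 of the 55 in hyperoxia the 95% interval lay within a log2 fold change of 1 in either direction.

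Whether M2-Exo acted differently in LPS and in hyperoxia was tested in 1 fit of all 12 libraries. Of 61 matrix genes tested, 0 were called by edgeR, against 0.0352% of all genes (5 of 14187), with 14 (23.0%, against 9.78%) at an unadjusted p under 0.05 and a smallest adjusted p of 0.191. DESeq2 called 2, Fn1 and Col12a1, and its share over all genes is not given here. For Fn1 the M2-Exo effect was 0.21 ± 0.04 in LPS and -0.19 ± 0.06 in hyperoxia, and the difference was 0.40 ± 0.08 (adjusted p = 0.191). DESeq2 gave that difference an adjusted p of 0.0035, and edgeR without Hyp + M2-Exo replicate 1 gave 0.47 with an adjusted p of 0.0146. For Col12a1 the difference was 0.30 ± 0.06 (adjusted p = 0.191), with 0.00906 by DESeq2. Mmp11, Hspg2, Loxl2 and Lama5 had differences of 0.42 ± 0.10, 0.31 ± 0.08, 0.29 ± 0.07 and 0.28 ± 0.08, none of which passed (adjusted p = 0.243, 0.25, 0.254 and 0.33). For the remaining genes of the main laminin and collagen IV the differences ranged from 0.05 for Col4a3 to 0.23 for Col4a4.

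**Figure D5:**
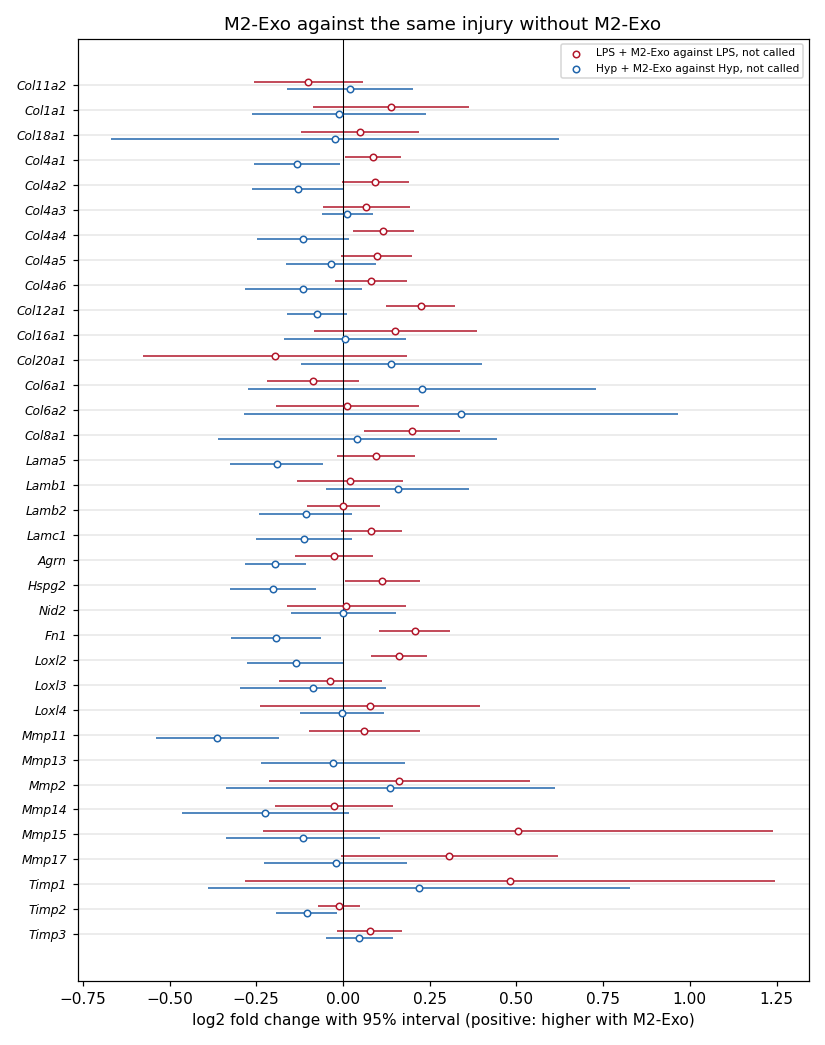
The log2 fold change of cultures with M2-Exo against those without it for 35 of the 36 matrix genes with a mean FPKM of at least 1, in LPS (red) and in hyperoxia (blue), with 95% intervals from edgeR. Mmp13 was not tested in LPS and has no point there, all points are open because 0 genes passed an adjusted p of 0.05, and Fn1, Loxl2 and Hspg2 lie above 0 in LPS and below 0 in hyperoxia.

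A list of 103 other genes of matrix assembly and turnover was read in the same fits. Between LPS and Hyp, 52 of the 78 tested were higher in LPS and 16 lower (87.2%, against 75.8% of all genes), with 14 and 3 of 22 collagen processing genes (77.3%, close to that share), 13 and 2 of 17 matrix receptors (88.2%), 18 and 7 of 26 matricellular and microfibril genes (96.2%), and 7 and 4 of 13 genes of the plasminogen system and other proteolysis (84.6%). Pxdn, the peroxidase that forms sulfilimine cross-links in collagen IV, was higher in LPS by 2.27 ± 0.04 (adjusted p = 1.92e-08). P3h4, part of the complex that modifies procollagen lysines, was higher by 2.23 ± 0.05 (adjusted p = 2.74e-08), P4ha3, a collagen prolyl hydroxylase subunit, by 2.72 ± 0.06 (adjusted p = 2.79e-08), and Fmod, the fibril-binding proteoglycan fibromodulin, by 5.81 ± 0.13 (adjusted p = 2.74e-08). Lower in LPS were Plaur, the urokinase receptor, with a log2 fold change of -2.11 ± 0.09 (adjusted p = 3.94e-07), and Ctsl, the protease cathepsin L, with -0.80 ± 0.04 (adjusted p = 4.99e-07). Cyr61, a matricellular integrin ligand, was lower with -1.23 ± 0.05 (adjusted p = 2.57e-07), and Pcolce2, an enhancer of procollagen cleavage, with -1.38 ± 0.11 (adjusted p = 1.02e-05). With M2-Exo in both injuries 50 of 77 were higher and 14 lower (83.1%, against 73.7% of all genes). Among them were Ltbp4, which binds TGF-beta to microfibrils, at 2.68 ± 0.06 (adjusted p = 4.95e-08) and Fras1, a protein beneath epithelial basement membranes, at 2.24 ± 0.05 (adjusted p = 4.95e-08). Within LPS, M2-Exo called 0 of 75 of these genes by edgeR, with 19 (25.3%, against 11.1% of all genes) at an unadjusted p under 0.05 and 2, Plat and Thbs1, by DESeq2. Within hyperoxia edgeR called 0 of 80, with 8 (10%, against 8.48%) at an unadjusted p under 0.05 and 0 by DESeq2. For the difference edgeR called 0 of 79, with 20 (25.3%, against 9.78%) at an unadjusted p under 0.05 and 1, Thbs1, by DESeq2. Shares over all genes by DESeq2 are not given here.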

How the data were processed

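RNA was measured by sequencing of poly(A)-selected libraries (TruSeq RNA kit) in 12 libraries of MLE-12 cells, 3 per group. The authors mapped the reads with HISAT2 2.0.4, and the submitters' processing notes also name GRCm38, StringTie 1.3.0 and edgeR. The annotation, the counting program and the use of strand are not given in the sources used here, and reads of genes that overlap cannot be told apart, which touches 41 of the 93 matrix genes. The authors deposited raw counts of reads per gene and FPKM, and the deposited FPKM followed from the counts, the gene length and the library total to a relative 0.000928 at most. Gene positions are those of the table. All 93 genes were found in GENCODE M21 (GRCm38), and 75 kept the same bounds there.

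The counts were tested with edgeR 4.0.16 in R 4.3.3 (filterByExpr, TMM, quasi-likelihood F test, Benjamini-Hochberg over all genes tested), separately for each pair of groups, with the difference of the M2-Exo effects in 1 fit of all 12 libraries. Genes were called at an adjusted p of 0.05, and the fits were tested on simulated data. Folds against a group with 0 counts used a floor of 3 counts per library and, like the intervals of count ratios, cover counting error only. The labels do not say whether the libraries of a group came from separate cultures, so p-values measure the spread between these libraries, which may be technical. Genes were named if called in any comparison, 30 at most by the smallest adjusted p, if among the 3 highest by FPKM of their role, or if a TIMP, and any other matrix gene was chosen for the text with its values in view. The gene set, the lists and the marker lists were chosen with earlier results of these data known. The alternatives were RLE size factors, total counts alone, no filter, a filter of 10 counts in every library, DESeq2 1.42.0, the replicate number as a block, all libraries in 1 fit, thinning to the smallest total, a log2 fold change of 1 and leaving out each library. In the pairs of groups compared, deviations of same-numbered libraries had correlations near 0, and the main fits did not pair them. Such correlations cannot exclude a shared batch. Upstream sequences came from the RefSeq promoter table, which held 66 of the 93 genes. 1 matrix gene that was tested and counted is not reported here by name or drawn.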

Additional observations from a re-analysis of the deposited data

How the results depend on the processing

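The number of matrix genes called was within 1.5 times the reported one under RLE size factors, total counts alone, both filters, the replicate block and thinning. Leaving out each library in turn gave 48 to 52 genes for LPS against Hyp, 49 to 51 for LPS + M2-Exo against Hyp + M2-Exo, 0 to 0 for M2-Exo in LPS, 0 to 0 for M2-Exo in hyperoxia and 0 to 1 for the difference, the 1 being Fn1 without Hyp + M2-Exo replicate 1. With the replicate block, 50 and 51 genes were called between the injuries and 0 for M2-Exo in either injury and for the difference. Deviations of same-numbered libraries had correlations from -0.018 to 0.050, against -0.078 to 0.036 for libraries of unlike number. Among matrix genes that overlap no other gene, an alternative chosen after seeing the data, 29 of 32 (90.6%, against 76.9% of all such genes) were called between LPS and Hyp and 30 of 32 (93.8%, against 74.8%) with M2-Exo. DESeq2 called 2 genes for M2-Exo in LPS and 2 for the difference, both times Fn1 and Col12a1, with its share over all genes not given here. Over the edgeR alternatives the adjusted p of Fn1 ranged from 0.0779 to 0.474 in LPS and from 0.0146 to 0.371 for the difference. Of the named genes' log2 fold changes, 523 of 528 values for LPS against Hyp and 520 of 528 with M2-Exo kept direction and call, the others being calls of Timp1 and Timp3 that were lost, and no value changed sign with a call. With M2-Exo, Timp1 lost its call without LPS + M2-Exo replicate 2 or 3 and without Hyp + M2-Exo replicate 2 or 3, with adjusted p of 0.0676 to 0.112, by DESeq2 (0.12), with the replicate block (0.0733) and after thinning (0.0828). Depth limits the genes under 10 counts, which were not tested.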
